A study of Mus musculus with 6 samples.

Results

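Kruppel-like factors (KLFs) were followed by the transcripts of 10 genes, Klf2, Klf3, Klf4, Klf6, Klf7, Klf9, Klf10, Klf11, Klf13 and Klf15, which were chosen as family members known from endothelium and muscle. All 10 were among the 17030 genes of the deposited table. The RNA came from mononuclear cells of skeletal muscle, taken from male mice (C57BL/B6) bearing Lewis lung carcinoma (LLC), a transplantable tumour that causes muscle wasting. Both groups were homozygous for floxed alleles of IKKb (Ikbkb), a kinase of the canonical NF-kB pathway. The 3 Pax7-CreERT libraries (genotype Pax7 Cre ErT x IKKbfl/fl) came from mice with a tamoxifen-activated Cre under Pax7, the transcription factor of muscle satellite cells, and the 3 control libraries (IKKbfl/fl) from mice with no Cre. Tamoxifen was given to both groups on days 10 to 14 after the tumour cells. No group had Cre without floxed alleles, none was free of tumour, and the labels give no age and no hour of collection. The labels do not state that each library is a separate mouse, so the p-values measure the spread between these libraries. Values below are given in the order of replicates 1, 2 and 3, first the Pax7-CreERT libraries ("with Cre") and then the controls ("without").

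KLFs are zinc finger transcription factors that bind GC-rich DNA, most often CACCC boxes and GC boxes, and they share these sites with the SP factors. In endothelium, KLF2 and KLF4 are switched on by blood flow and hold vessels in an anti-inflammatory, anticoagulant state. In muscle, KLF15 and KLF9 are induced by glucocorticoids, and KLF15 drives the breakdown of branched-chain amino acids and takes part in atrophy. KLF10 and KLF11 are early genes of transforming growth factor beta (TGF-beta), and KLF3 and KLF13 recruit repressors.

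The 250 bases before the RefSeq start of 5 of these genes are shown. Klf15 was the 1 member whose genotype groups did not overlap. Klf2, Klf4, Klf6 and Klf11 were among 6 members with their lowest level in the same library, control replicate 3. The others, Klf7 and Klf9, are not shown. The windows, in build GRCm38.p6, are chr6:90462326-90462575 (Klf15, plus strand), chr8:72318812-72319061 (Klf2, plus), chr4:55532476-55532725 (Klf4, minus), chr13:5861239-5861488 (Klf6, plus) and chr12:24651121-24651370 (Klf11, plus). Capitals mark GC boxes, whose searched letters were GGGCGG on either strand. They also mark CACCC boxes, searched by those letters on either strand, and E-boxes, the site of the clock factors among others, searched as the palindrome CACGTG.
Klf15: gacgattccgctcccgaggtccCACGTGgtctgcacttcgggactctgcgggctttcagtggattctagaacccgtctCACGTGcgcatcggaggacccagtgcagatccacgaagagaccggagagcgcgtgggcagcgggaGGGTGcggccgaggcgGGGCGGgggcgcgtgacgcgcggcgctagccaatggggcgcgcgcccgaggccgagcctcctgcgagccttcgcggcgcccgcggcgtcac
Klf2: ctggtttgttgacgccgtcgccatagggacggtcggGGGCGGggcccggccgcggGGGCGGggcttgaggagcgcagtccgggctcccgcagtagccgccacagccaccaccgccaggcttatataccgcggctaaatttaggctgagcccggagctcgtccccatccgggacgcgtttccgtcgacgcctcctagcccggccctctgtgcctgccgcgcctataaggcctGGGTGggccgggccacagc
Klf4: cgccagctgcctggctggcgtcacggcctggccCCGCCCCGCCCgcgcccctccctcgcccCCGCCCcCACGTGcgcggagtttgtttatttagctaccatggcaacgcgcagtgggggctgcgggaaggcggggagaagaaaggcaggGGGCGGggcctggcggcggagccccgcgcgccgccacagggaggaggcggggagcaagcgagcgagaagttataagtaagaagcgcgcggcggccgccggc
Klf6: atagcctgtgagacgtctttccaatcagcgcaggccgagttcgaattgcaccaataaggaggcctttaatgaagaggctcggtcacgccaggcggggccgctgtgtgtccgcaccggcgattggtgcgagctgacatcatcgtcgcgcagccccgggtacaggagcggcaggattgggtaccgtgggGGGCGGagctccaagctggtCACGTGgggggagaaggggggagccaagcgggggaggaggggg
Klf11: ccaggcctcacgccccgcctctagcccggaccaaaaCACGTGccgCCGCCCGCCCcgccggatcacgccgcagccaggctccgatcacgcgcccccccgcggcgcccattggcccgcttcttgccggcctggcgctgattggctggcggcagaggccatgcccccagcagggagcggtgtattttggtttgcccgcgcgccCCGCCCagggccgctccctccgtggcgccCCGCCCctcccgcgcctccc
Of the 10 members, 9 had a window in the RefSeq table, and Klf10 was the exception. A GC box stood in 8 of the 9 windows, against 32.7% of 32851 windows of the same length over all genes. A CACCC box stood in 6 of 9, against 52.0%, and an E-box in 4 of 9 (Klf4, Klf6, Klf11 and Klf15), against 6.02%. These 4 windows are all among the 5 shown, and the windows of Klf7 and Klf9 held no E-box. Klf15 held 2 E-boxes, at 228 to 223 and 172 to 167 bases before the start, and 0.429% of all windows held 2 or more. GC boxes overlap each other in Klf4 and Klf11, and each was counted. The consensus glucocorticoid response element, MEF2 box and NF-kB site and the cAMP response element TGACGTCA, searched on both strands like the others, were in 0 of the 9 windows and in 0.00913%, 0.14%, 0.14% and 1.55% of all windows. These members' windows are GC-rich, at 59.2% to 78.4% G and C, and a match is not shown to be a bound site.

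The deposited values are counts per 1000000 reads of the table (CPM), and the estimated depth was 4054000 to 13355000 reads a library. Control replicate 3 stood apart, at 51.6 on a first principal component on which the other 5 libraries lay between -17.0 and 0.2. It was also the shallowest library, and haemoglobin transcripts took 12.63% of its reads, against 1.84% to 4.83% in the others. Of 14763 genes tested, 39.8% had their lowest value in it. Ikbkb measured 51.4, 48.4 and 52.7 CPM with Cre and 51.3, 57.4 and 48.9 CPM without. Its log2 fold change was -0.04 (limma adjusted p = 0.97), and a gene-level value does not separate the floxed exons. In these mixed cells, fewer cells of a type and less RNA per cell cannot be told apart.

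Endothelial, macrophage and satellite cell markers were all present. The 19 endothelial markers summed to 12620 to 13720 CPM in the Pax7-CreERT libraries and 11960 to 16430 CPM in the controls. The 15 macrophage markers summed to 809.2 to 1142 and 633.9 to 1512 CPM, and the 9 satellite cell markers to 419.3 to 459.7 and 411.8 to 430.2 CPM. T, NK and B cell markers were uneven, at 147.8 CPM in Pax7-CreERT replicate 3 and 220.5 CPM in control replicate 3 against 32.8 to 40.6 CPM elsewhere, and 2 of these 10 markers were at 0 in at least 1 library.

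Per length, Klf6 was the most abundant member and Klf7 the least. The scale here is CPM per kilobase (kb) of annotated exon, as a mean over the 6 libraries, and it depends on annotated ends that these cells may not use. Klf6 stood at 534.3 CPM per kb, and its lowest library (352.4) lay above the highest of any other member. Klf2 (146.5) and Klf9 (126.7) followed with ranges that overlapped, then Klf4 (95.7) and Klf3 (66.7), which also overlapped. Klf3 lay above Klf10 (51.8) in 6 of 6 libraries, although their ranges met. Klf11 (27.2), Klf13 (26.8) and Klf15 (24.2) did not differ beyond their spread, and Klf7 (12.4) lay below all of them. Klf15 averaged 29.9 CPM per kb in the controls and 18.5 in the Pax7-CreERT libraries. It lay below Klf11 and Klf13 in the Pax7-CreERT libraries and in control replicate 1, and above both in control replicates 2 and 3.

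**Figure D1:**
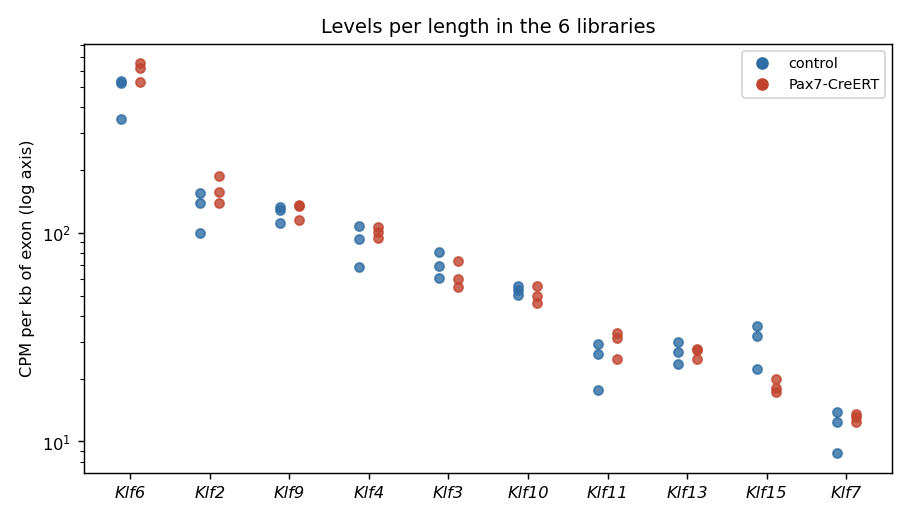
Level of each member per kb of exon (log axis), 1 point per library, controls in blue and Pax7-CreERT in red. Klf6 lies above all other members in every library and Klf7 below them, and Klf15 is the member whose red and blue points separate.

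None of the 10 members passed the test between the genotypes after adjustment over all genes (limma, 0 of 10 at an adjusted p under 0.05, lowest adjusted p = 0.891), where 0.00677% of the 14763 genes passed. At an unadjusted p under 0.05 stood 1 member, Klf15, which was lower, against 5.52% of all genes (4.58% higher and 0.942% lower). All 10 members passed the filter on low values and had at least 271 estimated reads in every library. The mean was higher in the Pax7-CreERT libraries for 6 members and lower for 4, against 68.0% of all genes higher. The median log2 fold change was 0.12 over the members and 0.09 over all genes. Without control replicate 3 the members' median was -0.001 and 4 had the higher mean, and with TMM factors the median was 0.02 against -0.001 over all genes.

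**Figure D2:**
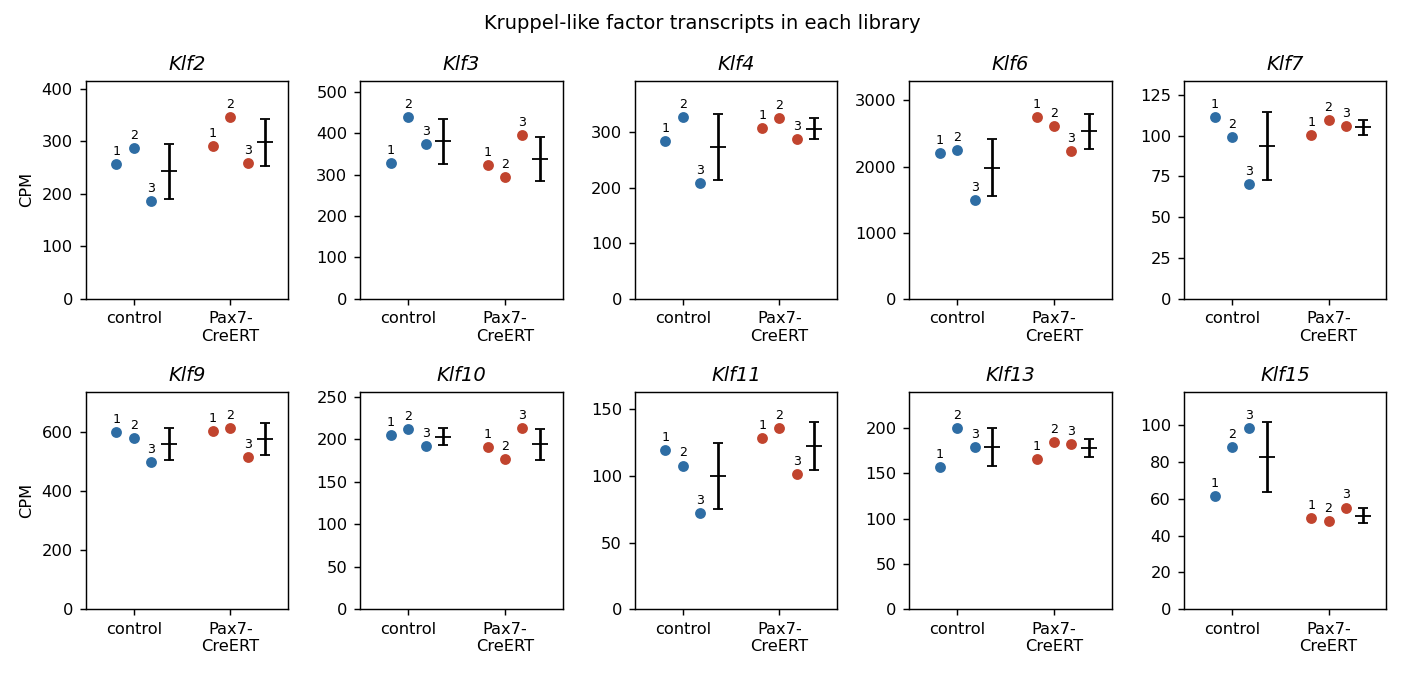
CPM of each member in each library, with replicate numbers beside the points, and mean and SD (n = 3) as black bars. The 3 Pax7-CreERT points of Klf15 (47.8 to 55.2 CPM) lie below the 3 controls (61.4 to 98.2 CPM), and control replicate 3 is the lowest point for Klf2, Klf4, Klf6, Klf7, Klf9 and Klf11.

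Klf15 was the member with the lower value in every Pax7-CreERT library. This gene (chromosome 6, 90462576 to 90479686, plus strand) measured 49.5, 47.8 and 55.2 CPM with Cre and 61.4, 87.8 and 98.2 CPM without. Every control lay above every Pax7-CreERT library, a pattern shown by 2.28% of all genes in this direction, 8.69% in the other and 11.0% in either. Mean levels were 50.8 ± 3.86 CPM with Cre and 82.5 ± 19.0 CPM without (SD, n = 3), so the controls were 1.62 times as high. The spread was in the controls, where replicate 1 lay closer to the Pax7-CreERT libraries than to control replicates 2 and 3. Counting error was 3.92% to 6.08% (SD) a library, less than that spread. The log2 fold change was -0.66 (SE 0.18, 95% interval -1.06 to -0.27), with an unadjusted p of 0.003966, the rank of 52 among 14763 genes, and an adjusted p of 0.891 in limma. An exact 2-sided permutation test gave p = 0.1, the smallest that 3 against 3 allows. Klf15 was highest in control replicate 3, the library that stood apart, and without it the log2 fold change was -0.52 (adjusted p = 0.6). Over all 12 alternative settings it ran from -0.86 to -0.51 (adjusted p = 0.44 to 0.999).

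Klf9, the other glucocorticoid-induced member, had no such separation. Klf9 (chromosome 19, 23141226 to 23168128) measured 603.1, 613.9 and 515.3 CPM with Cre and 600.6, 578.5 and 500.1 CPM without. The lowest library of each genotype, replicate 3 in both, was close to the other, and the groups overlapped. Its log2 fold change was 0.05 (SE 0.15, 95% interval -0.29 to 0.38, limma adjusted p = 0.975), and it was -0.03 without control replicate 3 and -0.05 with TMM factors.

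Genes of the glucocorticoid response were mixed, and 3 of 16 were lower in every Pax7-CreERT library, as Klf15 was. Of 16 listed genes 0 passed over all genes, 9 had a higher mean and 7 a lower mean, and the median log2 fold change was 0.04 against 0.09 over all genes. At an unadjusted p under 0.05, 3 were lower, against 0.942% of all genes in that direction, and none was higher. Without control replicate 3 the median was -0.15, against 0.04 over all genes. Tsc22d3, the glucocorticoid-induced leucine zipper, measured 519.1, 640.9 and 488.5 CPM with Cre and 779.6, 868.0 and 941.6 CPM without (log2 fold change -0.66, limma adjusted p = 0.891). Ddit4, an inhibitor of the growth kinase mTORC1 that hypoxia also induces, measured 67.7, 86.4 and 55.8 against 114.7, 105.1 and 96.0 CPM (-0.60). The third was Fkbp5, a co-chaperone of the glucocorticoid receptor, named here after its values were seen, with 33.1, 42.5 and 49.1 against 49.3, 71.5 and 92.3 CPM (-0.73). Like Klf15, these 3 of the 16 genes had separate groups, against 2.28% of all genes in that direction. In Fkbp5 the groups nearly met, at 49.1 against 49.3 CPM. The controls of Tsc22d3 and Fkbp5 had the order of Klf15, with replicate 3 highest and replicate 1 lowest, and those of Ddit4 had the reverse order. Anapc16, a gene outside the list, also had the order of Klf15 in its controls (91.8, 136.1 and 155.2 CPM). The share of all genes with this order was not counted. Errfi1, the most abundant gene of the list and an inhibitor of the EGF receptor, went the other way in 2 libraries, with 1001, 992.8 and 568.5 against 626.2, 687.6 and 615.3 CPM (0.36). Nr3c1, the glucocorticoid receptor gene, also named after its values were seen, measured 563.9 to 644.2 CPM against 438.9 to 656.3 CPM (0.11). The part of glucocorticoids in the Klf15 values was not tested.

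**Figure D3:**
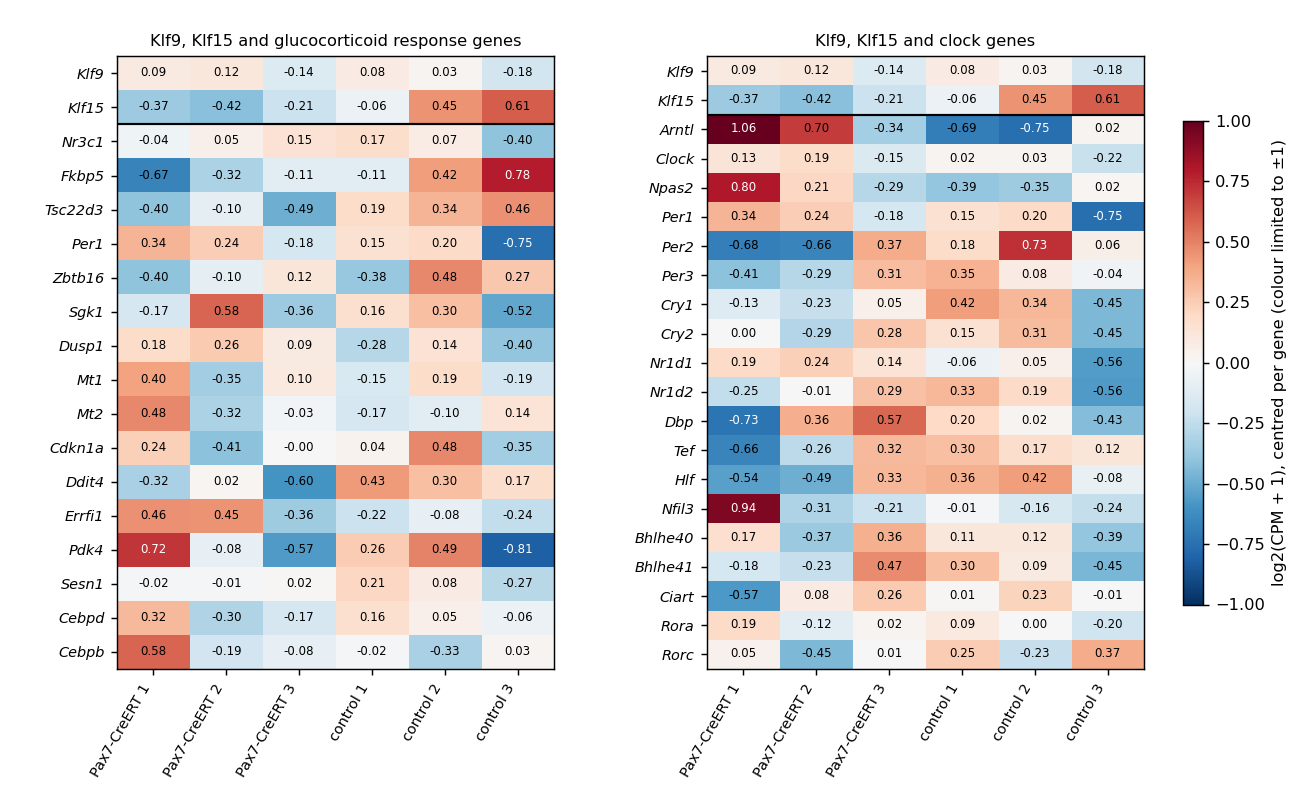
Level of Klf9, Klf15 and every listed glucocorticoid response gene (left) and clock gene (right) in each library, as log2(CPM + 1) centred per gene, with the values in the cells. Klf15 is negative in the 3 Pax7-CreERT libraries and reaches 0.45 and 0.61 in control replicates 2 and 3; Fkbp5 and Tsc22d3 are also highest there, and Klf9 stays between -0.18 and 0.12.

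Clock genes, which drive daily rhythms of Klf9, Klf10 and Klf15 in several tissues, differed between libraries of one genotype. Of 18 tested, 0 passed over all genes, and 10 had a higher and 8 a lower mean. The median was 0.03 on the log2 scale, against 0.09 over all genes. Without control replicate 3 these medians were -0.16 and 0.04. Besides Arntl and Per2 below, Nr1d1, a repressor of Arntl named after its values were seen, had an unadjusted p under 0.05 in limma (log2 fold change 0.38). At that level 2 of the 18 were higher and 1 was lower, against 4.58% and 0.942% of all genes. Arntl, which encodes the clock activator BMAL1, measured 9.15, 6.89 and 2.85 CPM with Cre and 2.01, 1.89 and 3.95 CPM without (0.95, limma adjusted p = 0.891). Per2, a repressor of BMAL1, measured 56.9, 57.7 and 119.3 against 104.3, 153.3 and 95.7 CPM (-0.65, adjusted p = 0.896). Pax7-CreERT replicates 1 and 2 were thus high in Arntl and low in Per2, while replicate 3 lay among the controls. Nr1d2, a nuclear receptor that represses Arntl and the most abundant gene of this list, measured 467.9, 552.5 and 681.2 against 700.7, 633.2 and 375.2 CPM (0.03). Klf15 measured 49.5, 47.8 and 55.2 CPM with Cre and 61.4, 87.8 and 98.2 CPM without. With no hour of collection in the labels, the part of the daily cycle in these values was not tested.

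The listed metabolic and atrophy targets of KLF15 were mixed. Of 14 tested genes 0 passed, 9 were higher and 5 lower, and the median log2 fold change was 0.03. Lpl, the lipoprotein lipase of capillary lipid uptake, had the smallest p of the list, with 666.8, 525.5 and 871.7 CPM with Cre against 1210, 1508 and 984.3 CPM (-0.85, limma adjusted p = 0.891). Hadha, a subunit of the mitochondrial fatty acid oxidation enzyme, lay the other way without overlap, at 57.8, 61.1 and 53.5 against 41.0, 49.6 and 45.6 CPM (0.34). Cd36, the fatty acid transporter and most abundant gene of the list, measured 1429, 1530 and 1575 against 2067, 1717 and 1161 CPM (-0.09). The branched-chain aminotransferase gene Bcat2 and the atrophy ligases Fbxo32 and Trim63, classical readouts of KLF15 in myofibres and named here for that, had log2 fold changes of -0.18, 0.29 and 0.08. Myofibre transcripts lay in the opposite direction to Klf15: all 16 listed genes had higher means in the Pax7-CreERT libraries (summed 2173 to 3119 CPM against 1049 to 1784 CPM, median log2 fold change 0.85, 0 of 16 passing over all genes). At an unadjusted p under 0.05 in limma stood 14 of the 16, against 4.58% of all genes in that direction. In 11 of the 16 the groups did not overlap, against 8.69% of all genes in that direction. Adipocyte markers lay in the same direction as Klf15 and Lpl. All 5 that were tested of 7 in the table had lower means in the Pax7-CreERT libraries (median log2 fold change -0.41, 0 passing over all genes). Of these 5, 2 were at an unadjusted p under 0.05 in limma, against 0.942% of all genes in that direction. The 7 summed to 239.5, 208.9 and 256.8 CPM with Cre and 267.6, 323.3 and 325.4 CPM without. These sums did not overlap, but 0 of the 5 tested genes had separate groups, unlike Klf15. Most of the sum was Lipe (102.6 to 122.6 against 113.3 to 164.9 CPM) and Plin4 (76.2 to 100.6 against 100.1 to 132.5 CPM). On the centred log2 scale the median of the 5 tested was -0.61, -0.26 and -0.03 with Cre and 0.11, -0.07 and 0.61 without, with overlap. Klf15 stood at -0.37, -0.42 and -0.21 with Cre and at -0.06, 0.45 and 0.61 without. Adipoq, which encodes the adipocyte hormone adiponectin and is named here as a defining marker, measured 4.31, 7.26 and 6.92 CPM with Cre and 9.53, 5.25 and 11.4 CPM without (-0.41), and 1 of the 7 was at 0 in a library. Neutrophil markers (5 of 6 tested lower, median -0.26) and erythroid genes (9 of 9 lower, median -0.92) also had lower means with Cre, with 0 passing. In 2 of the 6 neutrophil markers and 1 of the 9 erythroid genes the groups were separate, against 2.28% of all genes in that direction. At an unadjusted p under 0.05 in limma, 1 neutrophil marker and 2 erythroid genes were lower, against 0.942% of all genes. The erythroid sums overlapped, at 25000, 16540 and 46580 CPM with Cre and 39480, 24860 and 123100 CPM without, and were highest in control replicate 3. The part of the fibre, adipocyte, neutrophil and erythroid transcripts in the Klf15 and Lpl values was not tested.

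Klf2 and Klf4, the flow-regulated factors of endothelium, had higher means in the Pax7-CreERT libraries, and most of that difference was in control replicate 3. Klf2 (chromosome 8, 72319062 to 72321654) measured 291.4, 345.9 and 257.9 CPM with Cre and 256.3, 287.0 and 185.5 CPM without. Klf4 (chromosome 4, 55527137 to 55532475) measured 306.8, 325.0 and 287.0 CPM and 284.2, 326.6 and 209.0 CPM. In both genes control replicates 1 and 2 lay in or near the range of the Pax7-CreERT libraries, and control replicate 3 lay below all other libraries, at 64.7% and 68.1% of their median. The log2 fold changes were 0.31 for Klf2 (SE 0.18, 95% interval -0.10 to 0.72, limma adjusted p = 0.896) and 0.19 for Klf4 (SE 0.17, -0.20 to 0.57, adjusted p = 0.906). Without control replicate 3 they were 0.13 and 0.0058.

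No endothelial target of KLF2 and KLF4 passed the test. Of 8 induced targets 0 passed, 4 were higher and 4 lower, and the median log2 fold change was -0.01. Gja5, a connexin of arterial endothelium, measured 239.8, 290.5 and 207.0 CPM with Cre and 186.2, 219.5 and 245.0 CPM without (0.17). Aqp1, the capillary water channel, is very abundant and measured 8452, 8722 and 7789 against 11460, 12370 and 7304 CPM (-0.28). The classical targets Nos3 (endothelial nitric oxide synthase) and Thbd (thrombomodulin), named as the best known of the list, had log2 fold changes of 0.10 and 0.0067. Of 8 genes that KLF2 and KLF4 restrain 0 passed and 6 were higher, with a median of 0.10. Angpt2, a vessel-destabilising ligand, measured 43.8, 67.4 and 45.8 against 43.0, 41.4 and 43.7 CPM (0.26, limma adjusted p = 0.896); control replicate 3 and Pax7-CreERT replicate 1 nearly met. Ace, which makes angiotensin II, was the most abundant of them, at 125.4 to 131.7 against 113.7 to 149.8 CPM (-0.0019).

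The kinases, MEF2 factors and CCM proteins that control KLF2 and KLF4 gave no call. Of 18 such regulators 0 passed, 16 had a higher mean and 2 a lower one, and the median was 0.10 on the log2 scale against 0.09 over all genes. Mapk7, which encodes the kinase ERK5 that activates MEF2 upstream of Klf2, measured 38.8, 45.2 and 37.9 CPM against 33.4, 36.1 and 33.3 CPM (0.23, limma adjusted p = 0.896). Ccm2, part of the complex that restrains this kinase cascade, measured 14.7, 14.4 and 21.2 against 10.5, 12.3 and 15.1 CPM (0.38). Heg1, the receptor that anchors the complex, measured 466.6, 469.5 and 476.3 against 462.4, 551.3 and 362.2 CPM (0.06).

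Klf6, a factor induced early after injury, was the most abundant member and carried the largest positive difference of the 10. It lies on chromosome 13 at 5861489 to 5870393 and measured 2745, 2609 and 2242 CPM with Cre and 2211, 2250 and 1489 CPM without. Pax7-CreERT replicate 3 lay between control replicates 1 and 2, so the difference in means rested on Pax7-CreERT replicates 1 and 2 and on control replicate 3. The log2 fold change was 0.37 (SE 0.22, 95% interval -0.13 to 0.87, limma adjusted p = 0.896), and it was 0.18 without control replicate 3. Klf7, its closest relative and a factor of neurons and fat precursors, lies on chromosome 1 at 64035671 to 64121389. It measured 100.3, 109.5 and 105.8 against 111.3, 99.4 and 70.6 CPM, and control replicate 3 lay apart from the other 5 libraries. The Klf7 log2 fold change of 0.19 (adjusted p = 0.906) became -0.0007 without that library.

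Klf6 and Klf4 are also among the genes that rise when tissue is dissociated, so the immediate early genes are given beside them. Of 28 immediate early and dissociation stress genes 0 passed over all genes, 24 were higher and 4 lower, and the median log2 fold change was 0.24. The list lay lowest in control replicate 3 (-0.51 on the centred log2 scale) and between -0.19 and 0.26 in the other libraries. Klf6, like the list, was highest in Pax7-CreERT replicate 1 (0.31 for Klf6 and 0.26 for the list) and lowest in control replicate 3 (-0.57). In Pax7-CreERT replicate 3 and control replicate 2 the list stood at 0.24 and 0.17, but Klf6 at 0.02 in both. Klf4 was also lowest in control replicate 3 (-0.45), but in Pax7-CreERT replicate 2, where the list stood at -0.19, it stood at 0.18 and Klf6 at 0.23. The inducible HSP70 genes Hspa1b (1812, 1565 and 1588 against 697.2, 795.7 and 441.6 CPM) and Hspa1a (1996, 1744 and 1870 against 874.4, 986.7 and 589.4 CPM) had limma adjusted p-values of 0.308 and 0.404, and reads of these near-identical copies may be shared. Jun, an AP-1 subunit and the most abundant of them, measured 3443, 2562 and 2987 against 2357, 2702 and 1966 CPM (0.36). Without control replicate 3 the list's median was 0.003, and without Pax7-CreERT replicate 1 as well it was -0.10. The part of dissociation in the Klf values was not tested.

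Klf10 and Klf11, both early TGF-beta genes, differed from each other in how they varied. Klf10 (chromosome 15, 38291464 to 38300711) was the steadiest of the 10, with 191.3, 177.2 and 213.3 CPM with Cre and 204.6, 212.1 and 192.2 CPM without, a coefficient of variation of 7.07% over the 6 libraries. Its log2 fold change was -0.07 (SE 0.13, 95% interval -0.35 to 0.22, limma adjusted p = 0.953). Klf11 (chromosome 12, 24651371 to 24662782) measured 128.7, 135.9 and 101.8 CPM against 119.7, 107.8 and 72.3 CPM, a coefficient of 20.6%. Replicate 3 was the lowest in both genotypes, and the groups overlapped. The Klf11 log2 fold change was 0.31 (SE 0.20, -0.13 to 0.75, adjusted p = 0.896), and 0.09 without control replicate 3.

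Of 19 TGF-beta pathway genes 0 passed, 13 were higher and 6 lower, and the median log2 fold change was 0.08. Tgfb2, a TGF-beta ligand, measured 50.9, 43.8 and 37.9 CPM with Cre and 31.3, 24.1 and 34.5 CPM without, and the groups did not overlap (0.55, limma adjusted p = 0.891). Named after their values were seen, the ligand Tgfb3 (0.43) and the inhibitory SMAD gene Smad6 (-0.53) also had an unadjusted p under 0.05 in limma. At that level 3 of the 19 were higher and 1 was lower, against 4.58% and 0.942% of all genes. Id1, a target of the related BMP signal and the most abundant of the list, measured 360.0, 470.4 and 439.0 against 483.4, 497.3 and 427.3 CPM (-0.16).

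The repressor members Klf3 and Klf13 overlapped between the genotypes. Klf3 (chromosome 5, 64803521 to 64832901), which binds the corepressor CtBP and regulates muscle and fat genes, measured 322.5, 295.0 and 396.7 CPM against 328.8, 438.5 and 374.0 CPM. It was lowest in Pax7-CreERT replicates 1 and 2 and highest in control replicate 2, with overlap (log2 fold change -0.17, SE 0.16, 95% interval -0.54 to 0.19, limma adjusted p = 0.911). Klf13 (chromosome 7, 63886351 to 63938915), which works with the SIN3 corepressor and is known from T cells, measured 166.3, 184.5 and 182.4 against 157.6, 200.1 and 179.3 CPM. Its log2 fold change of -0.0051 (SE 0.13, -0.30 to 0.29, adjusted p = 0.995) was the closest to 0 of the 10. These 2 genes, with Klf10 and Klf15, did not have their lowest value in control replicate 3, where 39.8% of all genes did.

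Of 12 corepressor and coactivator genes that KLFs use 0 passed and 11 were higher, with a median of 0.12. Ctbp2, a CtBP corepressor, measured 46.4, 50.3 and 46.2 against 40.3, 44.5 and 41.0 CPM without overlap (0.18, limma adjusted p = 0.899). Crebbp, a histone acetyltransferase, measured 214.1, 195.5 and 181.6 against 154.5, 185.9 and 147.0 CPM (0.28), and Ncor1, a nuclear receptor corepressor, 255.9, 260.8 and 258.1 against 246.2, 270.4 and 202.8 CPM (0.12).

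**Figure D4:**
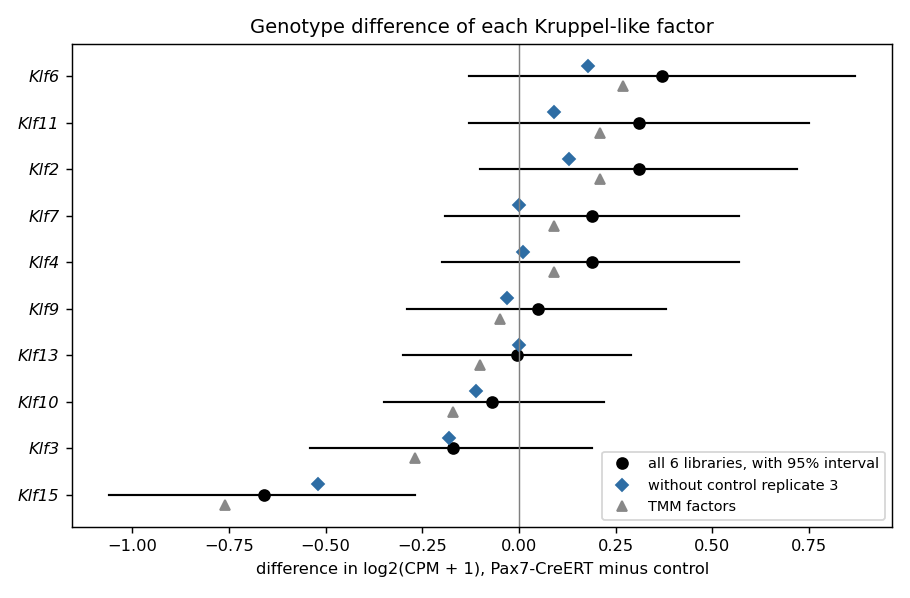
Difference of each member between genotypes on the log2(CPM + 1) scale, with the 95% interval (black), the value without control replicate 3 (blue) and with TMM factors (grey). The interval of Klf15 (-1.06 to -0.27) is the one that excludes 0, and without control replicate 3 the values of Klf4 and Klf7 move to 0.0058 and -0.0007.

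The members are sorted here by their value in control replicate 3, the library that stood apart. Its TMM factor was 0.91, against 0.993 to 1.048 in the others. Klf2, Klf4, Klf6, Klf7, Klf9 and Klf11 were lowest in control replicate 3, 6 of 10 members against 39.8% of all genes. On the log2 scale centred per gene, Klf11 (-0.58), Klf6 (-0.57), Klf2 (-0.52), Klf7 (-0.47) and Klf4 (-0.45) lay far below their other libraries there. Klf9 (-0.18) lay just below its value in Pax7-CreERT replicate 3 (-0.14). Endothelial markers had a median of -0.22 in control replicate 3, myofibre genes -0.84, macrophage markers 0.49 and erythroid genes 1.95. Klf15 was highest in control replicate 3 (0.61), as were 14.8% of all genes. The remaining members did not all share a lowest library. Klf3, Klf10 and Klf13 had their lowest value in Pax7-CreERT replicate 2 (Klf3 and Klf10) or control replicate 1 (Klf13), with ranges of 0.57, 0.27 and 0.34.

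**Figure D5:**
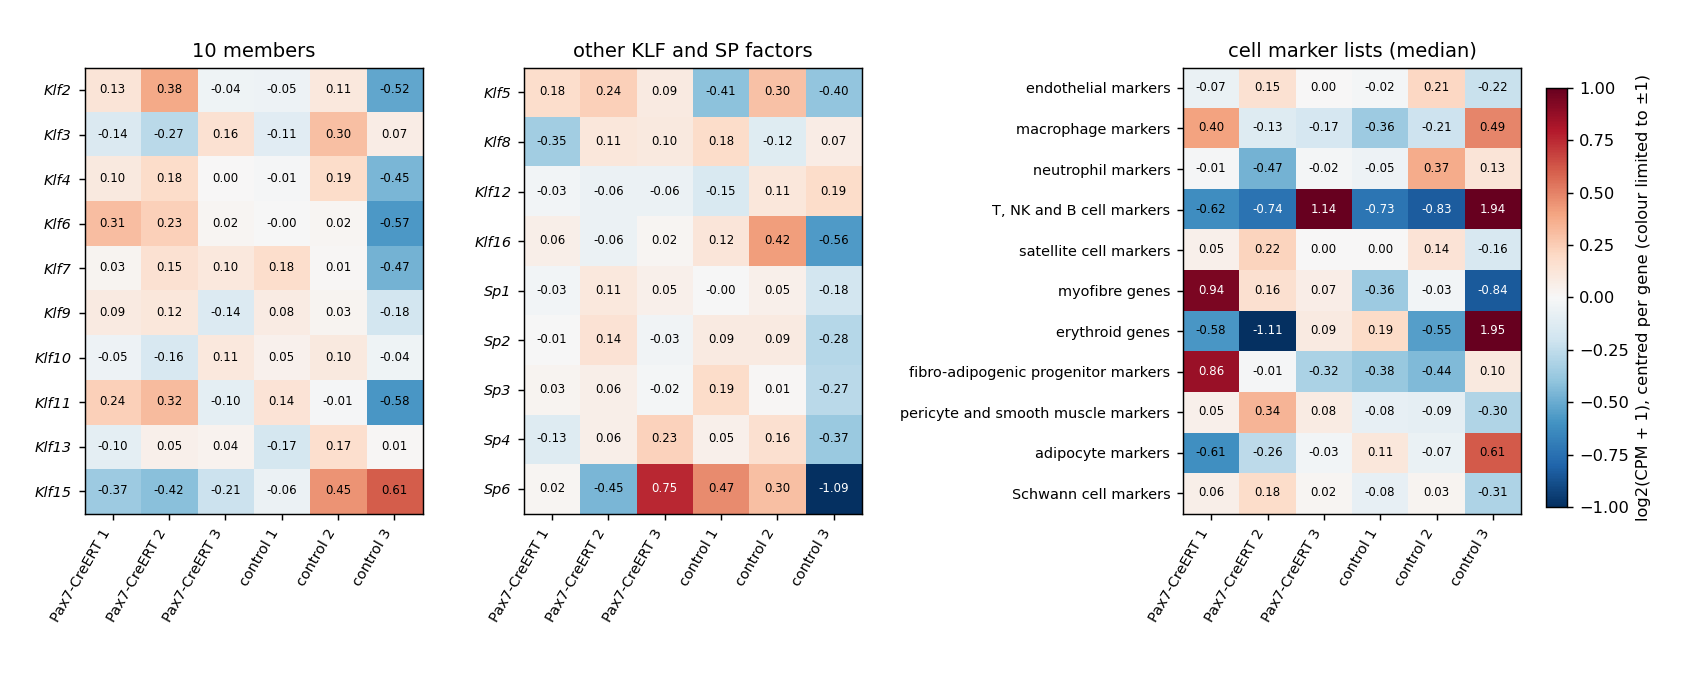
Log2(CPM + 1) centred per gene in each library for the members (left) and the other KLF and SP factors that were tested (middle), and the median of each marker list (right). Control replicate 3 is blue for Klf2, Klf4, Klf6, Klf7 and Klf11 (-0.45 to -0.58) and red for Klf15 (0.61), beside 1.95 for erythroid and 1.94 for T, NK and B cell markers.

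The rest of the family gave no call either. The table held 11 other KLF and SP genes, of which 9 were tested, 0 passed and 7 had the higher mean, with a median of 0.07 on the log2 scale (-0.02 with TMM factors). The direction of Klf8, Klf16, Sp1, Sp2, Sp3, Sp4 and Sp6 turned under at least 1 alternative setting. Sp1, the ubiquitous GC box factor, measured 407.0 to 498.2 CPM and Sp3, which competes with it, 231.9 to 317.6 CPM over the 6 libraries, with log2 fold changes of 0.09 and 0.05. Sp4 (121.9 to 185.6 CPM, 0.11) and Sp2 (7.89 to 10.9 CPM, 0.07) were similar. The CtBP-binding repressors Klf12 (43.6 to 55.5 CPM, -0.10) and Klf8 (9.88 to 14.7 CPM, -0.09) were lowest in control replicate 1 and Pax7-CreERT replicate 1. Klf16 was lowest in control replicate 3, as were 39.8% of all genes, at 12.6 CPM against 18.3 to 25.9 CPM in the others. Klf5, a factor of smooth muscle and epithelia, was at 3.18 to 5.79 CPM (0.34, limma adjusted p = 0.899), and Sp6 at 0.0198 to 2.65 CPM. Klf1, the erythroid member, was too low to test, with 1 to 8 estimated reads a library, and its highest level, 1.48 CPM, was in control replicate 3, where erythroid genes summed to 123100 CPM against 16540 to 46580 CPM elsewhere.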

How the data were processed

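RNA was sequenced from 6 libraries, 3 per genotype, grouped by the genotype in the labels. The deposited values are CPM with a constant of 0.0001 in every value, as read from the values and column sums. Per the submitters' processing notes the tools were Partek and DESeq2 and the build mm10, with no role stated; the aligner, counting rule and annotation release are not given in the sources used here. The constant was subtracted. Depth was estimated from the smallest step between low values; 92.9% to 93.9% of values up to 20 reads were whole within 0.05 read, under the 95% required, so no count test was run. Positions are those of the deposited table, with 1 subtracted from each end, which then equalled RefSeq for most genes. Exon lengths are unions of protein-coding GENCODE M21 basic exons.

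The comparison of genotypes used limma (version 3.58.1, R 4.3.3) with a mean-variance trend on log2(CPM + 1). It took in the 14763 genes that reached 1 CPM in 3 or more libraries, adjusted by Benjamini-Hochberg over all of them. The constant of 1 shrinks fold changes of low genes. Tested on simulated data (14508 to 14534 genes, 200 changed), limma recovered 63.0% of 2-fold and 97.7% of 4-fold changes, with 8.3 false calls on average. The changed genes were drawn only from genes at or above the median level. Noise was drawn independently for each gene and library, so no simulated library was made to stand apart as control replicate 3 did. These rates describe the simulated data only. In the real libraries Hspa1b and Hspa1a had means 2.57 and 2.29 times as high with Cre. Their limma adjusted p-values were 0.308 and 0.404, so neither was called. The rates are not the power to detect a change in the 10 members, which was not measured. Alternatives were pseudocounts of 0.1 and 4, no filter, TMM factors (trimmed means of log ratios on CPM, without precision weights), array weights and leaving out libraries.

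Members and lists were chosen with earlier results of these data known. Named genes are all members, the tested family, and from each list the 2 with the smallest p and the most abundant; others are marked, and some genes the rule names are not reported here. Protein sequences were not used here.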

Additional observations from a re-analysis of the deposited data

How the results depend on the processing

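No paired analysis was possible because the sample titles carry no replicate number shared between the genotypes. In all 12 alternative settings limma called 0 of the 10 members after adjustment, and Klf15 was the 1 member at an unadjusted p under 0.05. Klf2, Klf3, Klf4, Klf6, Klf10, Klf11 and Klf15 kept the sign of their log2 fold change in all 12. Leaving out 1 library each moved the count of members without overlap to between 1 and 7, where 17.9% to 23.9% of all genes did not overlap; the 7 came with Pax7-CreERT replicate 3 left out, control replicate 2 left out gave 4 and control replicate 1 gave 2, with fewer libraries to separate. Leaving out single libraries gave log2 fold changes of -0.0007 to 0.32 for Klf7, -0.03 to 0.12 for Klf9, -0.09 to 0.08 for Klf13, -0.17 to 0.06 for Klf8, -0.27 to 0.23 for Klf16, -0.06 to 0.13 for Sp2, -0.07 to 0.15 for Sp3, -0.05 to 0.21 for Sp4, -0.28 to 0.5 for Sp6 and -0.09 to 0.02 for Ikbkb. With TMM factors the sign turned for Klf9 (-0.05), Klf16 (-0.08), Sp1 (-0.0091), Sp2 (-0.02) and Sp3 (-0.05), and with array weights for Klf16 (-0.2), Sp2 (-0.0077), Sp3 (-0.01), Sp4 (-0.03) and Sp6 (-0.15). Leaving out Pax7-CreERT replicate 1 and control replicate 3 together, chosen after seeing the data, gave -0.07 for Klf9, 0.05 for Klf13, 0.07 for Klf8, -0.29 for Klf16, -0.04 for Sp2, -0.08 for Sp3 and -0.24 for Sp6. List medians with TMM factors were 0.025 for corepressors and coactivators, -0.111 for genes induced and 0.007 for genes repressed by KLF2 and KLF4, and -0.017 for the TGF-beta pathway. Leaving out single libraries gave medians of 0.101 to 0.237 for the repressed genes, -0.068 to 0.205 for KLF15 targets and 0.028 to 0.172 for the TGF-beta pathway. With both libraries left out they were -0.124 for KLF15 targets, -0.03 for the TGF-beta pathway and -0.101 for immediate early genes. The cause of these shifts was not tested. Depth limits Klf1, Sp6 and Sp7, which had 0 to 13 estimated reads a library; counting errors cover sampling of reads only.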

Other observations

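For the 2 members with the widest range over the libraries, the genes with the most similar profile were sought among 9426 genes of at least 10 CPM, by the root mean square difference of centred log2(CPM + 1) over the 6 libraries. For Klf15 they were Agfg2 (0.123), Anapc16, a subunit of the anaphase-promoting complex (0.124), and Rin1, a RAS effector (0.131), where the median over all candidates was 0.479. Anapc16 measured 84.3, 91.2 and 100.3 CPM with Cre and 91.8, 136.1 and 155.2 CPM without. For Klf11 the nearest were Prkdc, the DNA-dependent protein kinase (0.032), and Fryl (0.039), against a median of 0.282. Prkdc measured 23.2, 24.6 and 17.7 CPM and 21.1, 18.6 and 11.8 CPM. These values describe likeness over 6 libraries and nothing more.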
